A study of Mus musculus with 6 samples.

Results

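The transcripts of 10 energy metabolism isozymes of male germ cells were examined in Prss55-/- and wt mouse testis. The genes, chosen by name, were Ldhc, Gapdhs, Pgk2, Pgam2, Hk1, Aldoart1, Aldoart2, Eno4, Pdha2 and Cyct. They are 10 of the 19181 gene names with a tested probe, and the array carried 17 probes for them, with 6 probes for Hk1, 2 each for Gapdhs and Aldoart2, and 1 for each of the other 7 genes. Signals of all 10 genes differed little between the genotypes: no probe passed the adjusted or the unadjusted threshold, and the measured log2 differences lay between -0.036 and 0.20. Taken gene by gene on the probe with the highest mean signal, the 95% intervals of the difference reached from 0.873-fold to 1.26-fold of wt, and over all 17 probes from 0.843-fold to 1.40-fold.

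Testis RNA came from 3 Prss55-/- and 3 wt males aged 6 to 8 weeks, with 1 single-dye (Cy3) whole mouse genome array per mouse. The null allele had been made by homologous recombination with a PGK-Neo selection cassette. The offspring of heterozygous parents, of either genotype, were on a mixed 129Sv/C57BL/6 background. Whether the mice of the groups matched at other loci is not given. PRSS55 is a serine protease of the testis, its deletion is not limited to a cell type, and whole testis holds germ cells at every stage beside somatic cells. In such bulk RNA, fewer cells of a type and less RNA per cell cannot be told apart.

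Spermatozoa swim on ATP, much of it from glycolytic enzymes bound to the fibrous sheath of the tail and the rest from mitochondria of the midpiece. Many of these enzymes are encoded by genes other than those used in somatic cells. Pgk2 and Pdha2 are intronless copies of the X-linked genes Pgk1 and Pdha1, and are active in meiotic and later cells when the X chromosome is silent. Aldoart1 and Aldoart2 are likewise copies of Aldoa. Hk1 and Pgam2 are not confined to germ cells: Hk1 is the common hexokinase, with germ cell transcripts of its own, and Pgam2 is also the phosphoglycerate mutase of muscle.

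What each probe reads sets what its signal can show. The Gapdhs probe at transcript position 1205 and a Gapdh probe at position 937 lie on the same stretch of the coding sequence, and are shown because this was the closest match among 391 pairs of an isozyme probe and a paralogue probe. They differ at 11 of 54 shared bases (79.6% identity), and the next closest pair had 57.1%. Capitals mark the bases that differ, the isozyme probe being shifted 6 bases downstream.
Gapdhs 1205: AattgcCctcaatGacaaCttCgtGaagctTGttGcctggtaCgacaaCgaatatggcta
Gapdh 937: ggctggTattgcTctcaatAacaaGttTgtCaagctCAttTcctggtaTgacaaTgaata
The array files, on build mm9, place the first on the minus strand at chr7:31514958-31515392 and the second on the minus strand at chr6:125112105-125112274. Both intervals are longer than the 60 bases of a probe, as for a probe that crosses an exon junction.

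Likewise the other Gapdhs probe, at position 318, covers chr7:31521996-31522833 on the minus strand, and the Pgam2 probe, at position 664, covers chr11:5701822-5703040 on the minus strand, 838 and 1219 bases of genome for 60 bases of probe. The Hk1 probe at position 319, placed at chr10:61778201-61778260 on the minus strand, is shown with them because it and Gapdhs 318 varied most between wt arrays.
Gapdhs 318: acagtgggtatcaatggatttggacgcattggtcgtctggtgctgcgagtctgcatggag
Pgam2 664: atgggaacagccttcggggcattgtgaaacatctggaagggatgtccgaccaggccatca
Hk1 319: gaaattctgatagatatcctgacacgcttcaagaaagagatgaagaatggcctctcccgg
The single probes of Ldhc (chr7:54133274-54133333, plus strand), Pgk2 (chr17:40344145-40344204, minus), Aldoart1 (chr4:72511803-72511862, minus), Eno4 (chr19:59043584-59043643, plus), Pdha2 (chr3:140873425-140873484, minus) and Cyct (chr2:76192113-76192172, minus) each lie on an unbroken 60 bases, as do those of Aldoart2 on the plus strand of chromosome 12. How far RNA of a near-identical copy binds these probes was not tested.

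All arrays gave usable data. Between 69.5% and 72.9% of spots lay well above background, and no spot was saturated. The Prss55 probe (chr14:64694275-64694333) read 15.08, 14.95 and 14.93 on the 3 Prss55-/- arrays and 15.87, 15.77 and 16.01 on the 3 wt arrays, in normalized log2 signal, a difference of -0.90 (SE 0.080, limma adjusted p = 0.010). The adjusted p was 0.068 with Prss55-/- replicate 2 or replicate 3 left out and 0.066 with wt replicate 1 left out. The probe stayed well above background in Prss55-/- testis, and whether this probe lies in the deleted part was not settled. By other means, the study reported loss of Prss55 RNA (RT-PCR) and of the protein (Western blotting and immunofluorescence). The 3 Prss55-/- arrays shared a slide, wt replicates 1 and 2 shared another, and wt replicate 3 was on a slide of its own, so slide and genotype cannot be told apart. Of the 11 haploid spermatid markers tested 0 passed the adjusted threshold, 3 were higher and 1 was lower at an unadjusted p below 0.05 (median 0.074), and their mean log2 signal was 16.61 to 16.66 in Prss55-/- and 16.54 to 16.61 in wt testis. Of 7 Leydig cell markers, 0 passed adjusted and 3 were lower at an unadjusted p below 0.05 (median -0.56). Their list mean was 10.90 to 11.56 in Prss55-/- against 11.39 to 11.71 in wt testis. Of 10 Sertoli cell markers 3 were lower and 1 was higher at that threshold (11.43 to 11.47 against 11.50 to 11.51). The 7 macrophage markers had differences of -0.79 to -0.034, 1 of them at that threshold (9.47 to 9.72 against 9.69 to 9.88). Of 8 epididymis markers only 3 were tested, with a mean of 6.60 to 7.21 against 7.54 to 7.92. At an unadjusted p below 0.05, 2 of 10 spermatocyte markers were higher and 0 lower (13.14 to 13.18 against 13.08 to 13.11). For 8 spermatogonia markers these counts were 1 and 0 (9.52 to 9.57 against 9.42 to 9.51). For 6 peritubular and vascular markers they were 0 higher and 1 lower (10.48 to 10.61 against 10.63 to 10.67). Blood marker means overlapped (11.11 to 11.31 against 10.84 to 11.53). In the 10 marker lists for testis, epididymis, muscle and blood cells, 0 genes passed the adjusted threshold. The part of these cells in the isozyme values was not tested.

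Among the 28606 probes tested with limma, 346 passed a Benjamini-Hochberg adjusted p of 0.05 (1.21%, with 0.559% higher and 0.65% lower in Prss55-/-). An unadjusted p below 0.05 was reached by 5465 (19.1%, with 9.82% higher and 9.29% lower), and for 7524 the 3 Prss55-/- arrays did not overlap the 3 wt arrays (26.3%). For the isozymes, 17 of 17 probes exceeded background on every one of the 6 arrays. Of these 17 probes, 0 passed the adjusted threshold, 0 had an unadjusted p below 0.05 and 0 had groups that did not overlap. Their lowest unadjusted p was 0.15 in limma and their adjusted p ranged from 0.41 to 0.87. The median log2 difference over the 10 genes was 0.033, against 0.0019 over all probes tested. The median size of the difference, sign ignored, was 0.040 for the 17 probes and 0.095 for all tested probes, and 0.066 for the 8434 probes with a mean signal no lower than that of the dimmest isozyme probe, a group chosen after the values were seen. Signals were higher in Prss55-/- for 7 genes and lower for 3. This split became 10 and 0 with scaling to the 75th percentile, under which the median of all probes moved to 0.024. It was 9 and 1 with normexp background correction, and 6 and 4 without Prss55-/- replicate 3 or without wt replicate 3.

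**Figure D1:**
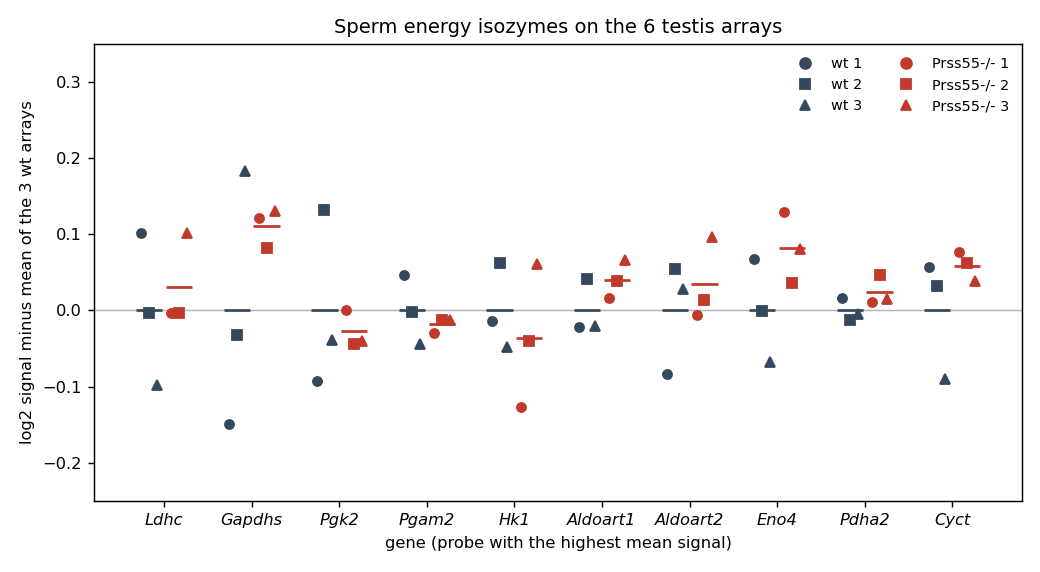
Normalized log2 signal of each isozyme (probe with the highest mean signal) on each of the 6 arrays, minus the mean of the 3 wt arrays, with wt in dark blue, Prss55-/- in red, a marker shape for each replicate number and a line at each group mean. The groups overlap for all 10 genes, and all group means of Prss55-/- lie between -0.036 and 0.11.

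Glucose enters glycolysis through hexokinase, and Hk1 was read by 6 probes along its transcript. On the probe with the highest mean signal, at position 3784 (chr10:61731916-61731975, minus strand), Hk1 read 17.25, 17.34 and 17.44 in Prss55-/- and 17.37, 17.44 and 17.33 in wt testis. Prss55-/- replicate 1 was the lowest of the 6 arrays, and the other 2 lay within the wt range. The log2 difference was -0.036 (SE 0.065, limma adjusted p = 0.80). The other 5 Hk1 probes had differences of 0.20 at position 140, 0.15 at position 319, 0.023 at position 2446, 0.089 at position 2798 and 0.12 at position 2908. The probe at position 140 is listed with 1 RefSeq transcript and the others with 2, and the files align only 31 bases of the one at position 2446.

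The aldolase copies Aldoart1 and Aldoart2 split the sugar bisphosphate in sperm. Aldoart1 read 13.85, 13.87 and 13.89 in Prss55-/- against 13.81, 13.87 and 13.81 in wt testis. The highest array was a mutant and the lowest a wt, with a difference of 0.040 (SE 0.046, limma adjusted p = 0.67). Aldoart2 read 16.34, 16.36 and 16.44 against 16.27, 16.40 and 16.38, a difference of 0.035 (SE 0.059, limma adjusted p = 0.78). Its other probe differed by 0.034, so the 2 probes gave nearly the same value.

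Gapdhs, whose product replaces somatic GAPDH in sperm, was read by 2 probes. At position 1205, the probe of highest mean signal, it read 17.46, 17.43 and 17.47 in Prss55-/- and 17.19, 17.31 and 17.53 in wt testis. The mutant arrays stood close together (SD 0.025, n = 3) while the wt arrays were spread (SD 0.17, n = 3), with wt replicate 3 the highest of all and wt replicates 1 and 2 the lowest. The difference was 0.11 (SE 0.089, 95% interval -0.11 to 0.33, limma adjusted p = 0.54). It was the largest of the 10 genes with all arrays in, but 0.038 without wt replicate 1, where Eno4 differed by 0.12, Ldhc by 0.090 and Cyct by 0.088. This probe has 10 spots on each array, and the standard error of their mean within an array, which covers spot error alone, was 0.013 to 0.057. The probe at position 318 gave the same order, with 13.59, 13.56 and 13.62 in Prss55-/- and 13.29, 13.50 and 13.73 in wt testis, and a difference of 0.085 (SE 0.11, limma adjusted p = 0.72).

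The wt spread of Gapdhs recurred in Hk1. At position 319 Hk1 read 12.56, 12.38 and 12.34 in Prss55-/- and 12.09, 12.20 and 12.53 in wt testis, and at position 140 it read 13.96, 13.74 and 13.70 against 13.49, 13.50 and 13.83. In both, wt replicates 1 and 2 were below every mutant array and wt replicate 3 was above 2 of them. Without wt replicate 3, the log2 difference grew to 0.20 for Gapdhs at position 1205, to 0.31 for Hk1 at position 140 and to 0.28 for Hk1 at position 319. These 3 probes then had an unadjusted limma p below 0.05, and their limma adjusted p was 0.14, 0.16 and 0.16. None of them was among the 387 tested probes that passed the adjusted threshold in that fit. With all arrays in, 19.1% of tested probes had an unadjusted limma p below 0.05. That share is not given for the fit without wt replicate 3, so the 3 probes are not shown to stand out from the array. In that fit the difference of Hk1 at position 3784 went the other way, to -0.060. Without wt replicate 1 the differences of the same 3 probes shrank to 0.038, 0.14 and 0.062, and that of Gapdhs at position 318 turned to -0.026. Over the 17 isozyme probes, the SD was larger in wt than in Prss55-/- for 14, with a median of 0.10 against 0.032. Over all tested probes the median SD was 0.088 in wt and 0.074 in Prss55-/-. The part of the slide in this spread was not tested.

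**Figure D2:**
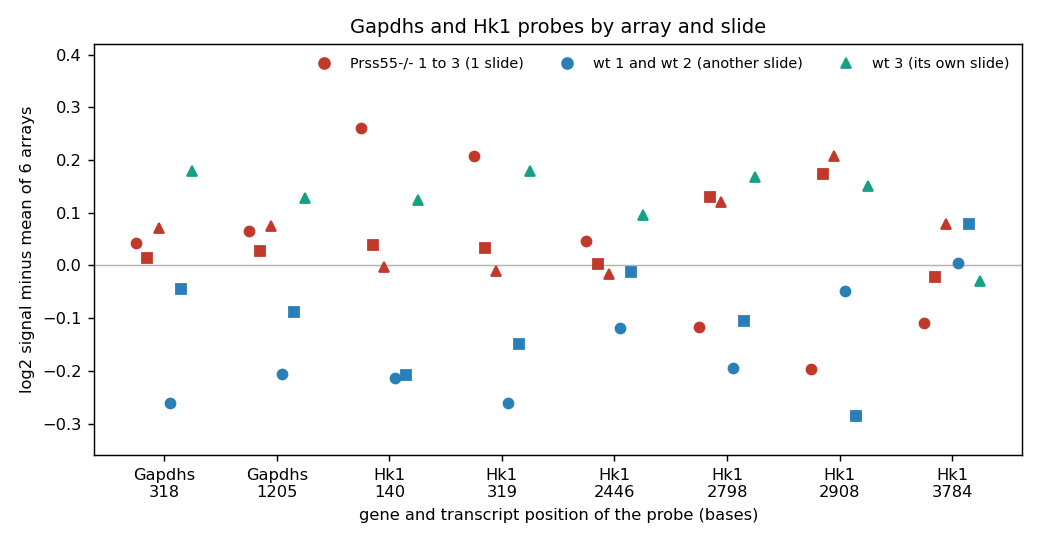
Normalized log2 signal of the 2 Gapdhs and 6 Hk1 probes on each array, minus the mean of the 6 arrays, ordered by the position of the probe in the transcript. Circles, squares and triangles are replicates 1, 2 and 3, and colours separate the slide of the 3 Prss55-/- arrays (red), that of wt replicates 1 and 2 (blue) and that of wt replicate 3 (green). Blue points are the lowest for both Gapdhs probes and for Hk1 at positions 140 and 319, and green points are above zero everywhere but at position 3784.

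Phosphoglycerate kinase, the first step of glycolysis to yield ATP, is PGK2 in sperm. Pgk2 read 17.35, 17.30 and 17.30 in Prss55-/- and 17.25, 17.48 and 17.31 in wt testis. All mutant arrays fell between wt replicate 1 and wt replicate 2, and the difference was -0.027 (SE 0.069, limma adjusted p = 0.86). Pgam2, for the mutase that follows, read 17.16, 17.18 and 17.18 against 17.24, 17.19 and 17.15. The mutant values again lay inside the wt range, with a difference of -0.018 (SE 0.046, limma adjusted p = 0.86), the smallest of the 17 probes. Skeletal muscle markers, which would mark the other source of Pgam2 RNA, had a mean log2 signal of 6.90 to 6.94 in Prss55-/- and 6.76 to 7.08 in wt testis. Of the 7 tested, 2 were lower and 0 higher at an unadjusted limma p below 0.05, with differences from -0.27 to 0.47. The muscle creatine kinase Ckm did not pass the background filter.

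Eno4, an enolase of the sperm tail, read 12.84, 12.75 and 12.79 in Prss55-/- and 12.78, 12.71 and 12.64 in wt testis. Of the 6 arrays the highest 2 were mutants and the lowest 2 were wt, yet the groups overlapped, and the difference was 0.083 (SE 0.056, 95% interval -0.054 to 0.22, limma adjusted p = 0.47). Ldhc encodes the lactate dehydrogenase of germ cells, and read 18.17, 18.17 and 18.27 against 18.27, 18.17 and 18.07. The wt arrays covered the whole mutant range, the highest value being 18.271 in each genotype. The difference was 0.031 (SE 0.068, limma adjusted p = 0.83), and with scaling to the 75th percentile it was 0.11 (limma adjusted p = 0.45).

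The remaining pair acts in mitochondria. Pdha2, the germ cell E1 alpha subunit of pyruvate dehydrogenase, read 14.04, 14.08 and 14.05 in Prss55-/- and 14.05, 14.02 and 14.03 in wt testis, the least variable of the 10 genes in wt (SD 0.015, n = 3). The difference was 0.024 (SE 0.042, limma adjusted p = 0.79). Cyct, the testis cytochrome c that carries electrons to the last complex of the respiratory chain, read 14.80, 14.78 and 14.76 against 14.78, 14.75 and 14.63. The lowest value was that of wt replicate 3, and the difference was 0.059 (SE 0.056, limma adjusted p = 0.60).

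**Figure D3:**
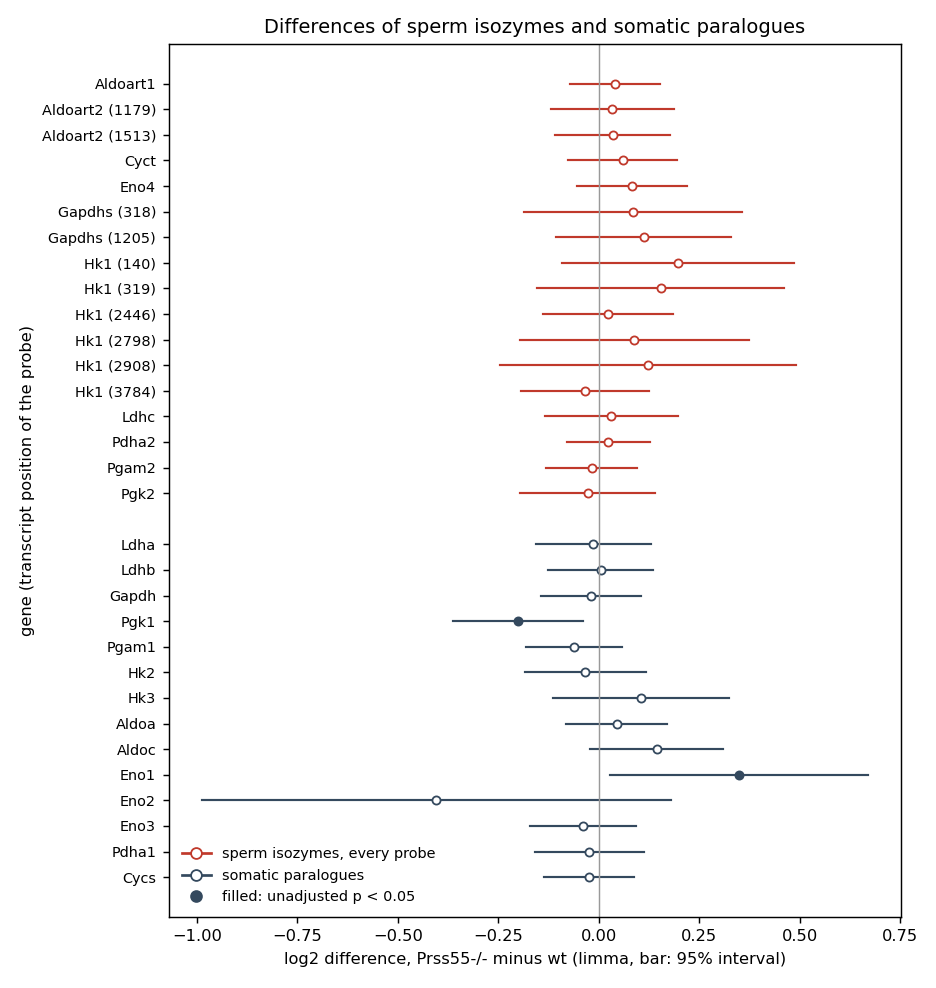
Log2 difference (Prss55-/- minus wt) with its 95% limma interval for each of the 17 isozyme probes (red, position in the transcript in brackets where a gene has several) and for the highest-mean probe of each of 14 somatic paralogues (blue). Every red interval crosses 0, and filled points, at an unadjusted p below 0.05, are Pgk1 and Eno1.

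Somatic paralogues, which serve the same steps, are the nearest comparison, and from which cells of the testis their RNA came was not tested. Of 14 paralogues 0 passed the adjusted threshold, 1 was lower and 1 was higher at an unadjusted p below 0.05, and their median difference was -0.022. The largest difference was that of the dim Eno2, at -0.40 (SE 0.24, limma adjusted p = 0.41). Its mean log2 signal was 5.33 in Prss55-/- and 5.73 in wt testis, with overlap between the genotypes. Pgk1 read 12.31, 12.12 and 12.15 in Prss55-/- and 12.45, 12.39 and 12.35 in wt testis, so every mutant array was below every wt array (difference -0.20, SE 0.067, limma adjusted p = 0.19). Its other probe overlapped between genotypes, at -0.12. The array files place both Pgk1 probes on chromosome 3 (the first at chr3:57906703-57906762) and not on the X chromosome, so which copy of Pgk1 they read is uncertain. Eno1 read 12.38, 11.96 and 12.01 against 11.62, 11.81 and 11.88, a difference of 0.35 (SE 0.13, limma adjusted p = 0.23). Every mutant array was above every wt array, and Prss55-/- replicate 1 gave the highest value.

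The other paralogues of the pairs below had small differences. They were -0.014 for Ldha, 0.0042 for Ldhb, -0.020 for Gapdh, -0.062 for Pgam1, -0.033 for Hk2, 0.044 for Aldoa, -0.024 for Pdha1 and -0.024 for Cycs, none with an unadjusted limma p below 0.05. The Gapdh probe that shares its stretch with Gapdhs differed by 0.066 (limma adjusted p = 0.45), with no overlap between the genotypes.

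Whether an isozyme moved apart from its paralogue was tested within each array for 11 pairs, as the log2 signal of the isozyme minus that of the paralogue. With the main quantile normalization, the genotypes failed to overlap in 0 of the 11 pairs. The lowest p was 0.2 (two-sided exact permutation test, adjusted p = 0.83), where 3 arrays against 3 cannot give a p below 0.1. Pgk2 minus Pgk1 was 0.22 higher in Prss55-/- with 75th percentile scaling and with normexp background correction, each at an exact permutation p of 0.1. Ldhc minus Ldhb was 0.066 higher with normexp, also at an exact permutation p of 0.1. At that p the groups of arrays did not overlap. With the main normalization Pgk2 minus Pgk1, which rests on the Pgk1 probe placed on chromosome 3, was 0.17 higher in Prss55-/- (SE 0.094, exact permutation p = 0.2). Pgam2 minus Pgam1 was 0.044 higher (SE 0.040, exact permutation p = 0.2). Gapdhs minus Gapdh was 0.13 higher (SE 0.10, exact permutation p = 0.4), whereas Eno4 minus Eno1 was -0.27 (SE 0.16, exact permutation p = 0.3). For the remaining 7 pairs the values lay between -0.0098 (Aldoart2 minus Aldoa) and 0.083 (Cyct minus Cycs).

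**Figure D4:**
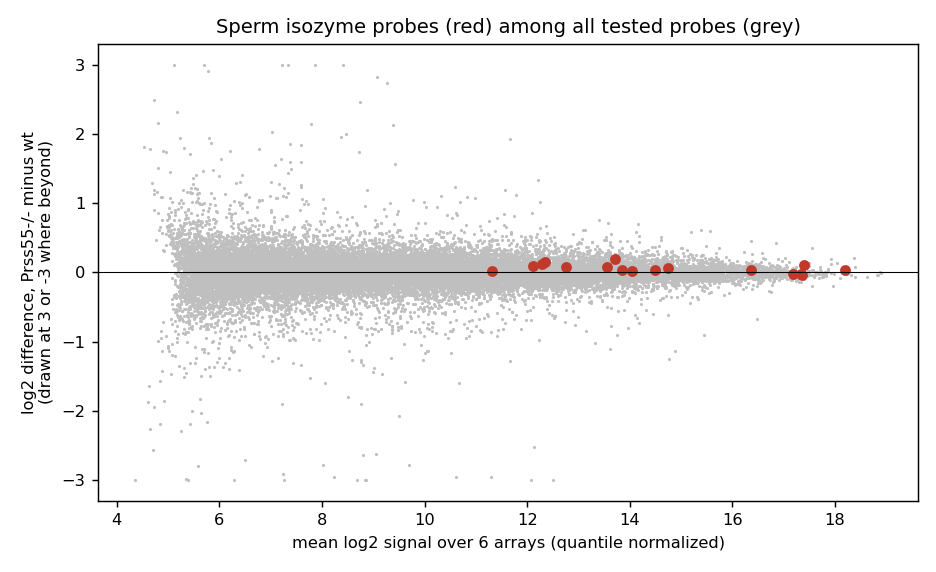
Log2 difference (Prss55-/- minus wt) against the mean normalized log2 signal over 6 arrays for the 28606 tested probes (grey) and the 17 isozyme probes (red), with differences beyond 3 drawn at the edge. The isozyme probes lie between -0.036 and 0.20, and the spread of grey points narrows toward high signals.

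Genes that feed or hold these enzymes were described from lists by role. Of 18 tested genes for the other glycolytic steps and their regulators, 0 passed the adjusted threshold, with a median difference of -0.030. At an unadjusted p below 0.05, 2 were lower, and these were Pfkl and Pfkfb4, the first named after its value was seen. Pfkfb4, a testis form of the enzyme that sets fructose 2,6-bisphosphate, differed by -0.28 (SE 0.054, limma adjusted p = 0.074) with no overlap between genotypes, and Pfkl by -0.19. Pklr, the pyruvate kinase of liver and red cells, had a difference of 0.30 (limma adjusted p = 0.46).

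Pyruvate enters mitochondria through its carrier and pyruvate dehydrogenase, and of 12 such genes tested 0 passed the adjusted threshold (median 0.015). Pdp1, a phosphatase that activates the dehydrogenase, differed by 0.28 (limma adjusted p = 0.19) but by -0.12 on its other probe. Pdk1, a kinase that inactivates it, differed by -0.18 (limma adjusted p = 0.15), and by -0.014 on its other probe. Dlat, its E2 subunit, was the third at an unadjusted p below 0.05 (0.14) and is named after its value was seen.

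Of 14 fuel transporter and sugar pathway genes 0 passed the adjusted threshold (median -0.025). Slc2a2, a glucose transporter, differed by 0.39 (limma adjusted p = 0.39) and Slc16a3, a lactate transporter, by -0.23 (limma adjusted p = 0.53). At an unadjusted p below 0.05 were Sord (0.20, SE 0.046, limma adjusted p = 0.10), which turns sorbitol into fructose, Slc16a8 (0.23) and Slc2a4 (-0.21), all named after their values were seen. Sord read 16.68, 16.68 and 16.71 in Prss55-/- and 16.47, 16.46 and 16.54 in wt testis, with all mutant arrays above all wt arrays.

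Of 15 genes for other testis-restricted energy proteins 0 passed the adjusted threshold and 0 had an unadjusted p below 0.05 on the highest-mean probe, and their median was 0.016. Oxct2a, which activates ketone bodies, differed by -0.13 (limma adjusted p = 0.37), and Gk2, a germ cell glycerol kinase, by -0.12 (limma adjusted p = 0.47).

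The fibrous sheath list, which holds the anchors of the glycolytic enzymes and late spermatid genes, contained the only gene of these energy lists past the adjusted threshold. Fsip1, a fibrous sheath interacting protein, read 14.48, 14.48 and 14.55 in Prss55-/- and 13.69, 13.90 and 13.81 in wt testis, and rose by 0.70 (SE 0.068, limma adjusted p = 0.012). All mutant arrays lay above all wt arrays. Its other probe rose by 0.79 (SE 0.066, limma adjusted p = 0.0085), from 10.90, 11.11 and 11.03 in wt testis to 11.79, 11.81 and 11.82. The call was lost in 5 of 14 alternatives for the first probe and in 4 for the second, where the adjusted p reached 0.10 and 0.096. Leaving out Prss55-/- replicate 2 gave 0.077 and 0.061, Prss55-/- replicate 3 gave 0.080 and 0.061, and wt replicate 1 gave 0.055 for the first probe. Fsip2 had a difference of 0.20 (limma adjusted p = 0.10) and of 0.11 on its other probe. The median over the 12 tested genes of the list was 0.011.

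**Figure D5:**
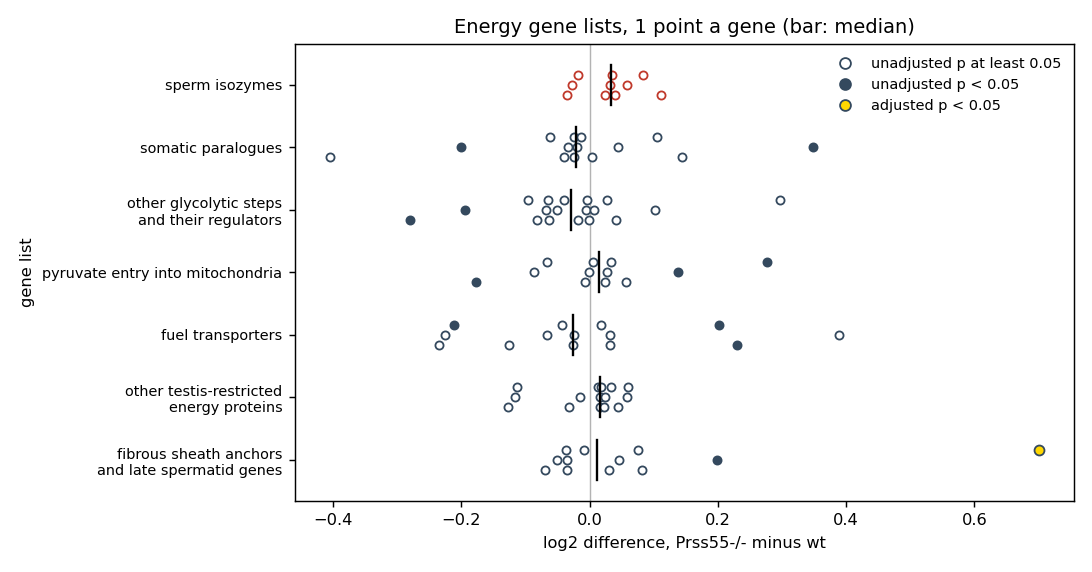
Log2 difference (Prss55-/- minus wt) of the highest-mean probe of each tested gene in 7 lists, with the list median as a black bar. Open points have an unadjusted p of 0.05 or more, filled points lie below it, and the gold point, Fsip1 at 0.70, is the only one past the adjusted threshold. All 10 isozymes are open points between -0.036 and 0.11.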

How the data were processed

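Signals came from 6 single-dye testis arrays, 3 per genotype. The authors deposited each array's Agilent Feature Extraction output (version 10.7 in the submitters' processing notes), in which the processed signal is a linear intensity, corrected for background within the array. A deposited matrix holds log2 values, whose columns correlate with their own arrays at 0.9998 or more and each have a median of 7.725. Per the file headers, positions are on mouse build mm9.

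Control and outlier spots were left out, signals were floored at 1, log2-transformed and quantile-normalized as in the methods of the study, and spots of a probe were averaged. A probe entered the test when every array of one genotype or of the other had it well above background, and 28606 did. The test was limma's moderated one (version 3.58.1, R 4.3.3, lmFit then eBayes), taken as two-sided, and p values were adjusted by Benjamini and Hochberg's method over those probes. Precision is limited by the number of arrays. The fit was tested on simulated data. Each gene was represented by its highest-mean tested probe.

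Members, paralogues and lists were chosen with earlier results of these data known. Named were all isozymes, the paralogues of 11 pairs and the paralogue with the largest difference. From each other energy list, the genes past the adjusted threshold and the 2 with the largest difference were named. Some genes of the lists are not reported here. Pairs were tested by exact permutation in Python 3.11.15 (scipy 1.17.1, numpy 2.4.6, pandas 2.3.3), and plots made with matplotlib 3.10.9. Alternatives were 75th percentile scaling, normexp background correction (offset 50), other filters, the methods' t-test, the deposited matrix, blocks for replicate number and slide, and each array left out. The study speaks of pairs of mice, but whether the replicate numbers mark those pairs is not given in the sources used here.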

Additional observations from a re-analysis of the deposited data

How the results depend on the processing

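No isozyme passed the adjusted threshold under any of the 14 alternatives, where the lowest adjusted p was 0.14. At an unadjusted p below 0.05 the count stayed at 0, except for 2 genes (Gapdhs and Hk1) without wt replicate 3, so that leaving out arrays gave 0 to 2. In that fit 387 of all tested probes passed the adjusted threshold, and their share at an unadjusted p below 0.05 is not given here. The median difference of 0.033 was 0.062 with 75th percentile scaling, under which the median of all probes also moved, to 0.024, and 0.016 to 0.050 with an array left out. Among all probes, the adjusted count of 346 ranged from 13 with the replicate block and 44 without Prss55-/- replicate 3 to 862 without Prss55-/- replicate 1, and was 140 with no filter on dim probes, 87 by the methods' t-test, 57 when Prss55-/- replicate 2 was left out, 67 for wt replicate 1 and 137 for wt replicate 2. Prss55 lost its call in 5 of 14 alternatives and Fsip1 in 5 and 4, including the methods' t-test (Prss55 adjusted p = 0.071), the replicate block (0.10) and Prss55-/- replicates 2 or 3 left out (0.068 for each). These alternatives for Prss55 and Fsip1 were added after seeing the data.

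Signs of the smallest differences turned. With 75th percentile scaling Pgk2 was 0.032, Pgam2 0.035 and Hk1 0.048. With normexp Pgk2 was 0.027, Pgam2 0.017, Hk1 0.0015 and Pdha2 -0.013, and in the deposited matrix Pgam2 was 0.0026. With an array left out, Hk1 ranged from -0.079 to 0.0092, Ldhc from -0.018 to 0.090, Pgam2 from -0.037 to 0.0062, Aldoart2 from -0.0058 to 0.063 and Pgk2 from -0.071 to 0.038. Hk1 minus Hk2 was 0.079 with 75th percentile scaling, 0.016 with normexp and 0.028 in the matrix, and Cyct minus Cycs was -0.015 with normexp. With an array left out, the pairs that turned ranged from -0.015 to 0.16 for Ldhc minus Ldha, -0.0069 to 0.095 for Ldhc minus Ldhb, -0.053 to 0.038 for Hk1 minus Hk2, -0.024 to 0.015 for Aldoart1 minus Aldoa and -0.059 to 0.028 for Aldoart2 minus Aldoa. The cause was not tested.

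Deviations of arrays with the same replicate number correlated at -0.11 to -0.023, so no pairing by number was visible, although the study speaks of pairs of mice. The replicate block cannot move a difference in this balanced design, so the median is 0.033 and Pgk2 minus Pgk1 is 0.17 by construction. With it 0 isozymes passed either threshold, and over pairs the test has an exact p of at least 0.25.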
